A study of Mus musculus with 24 samples.

Results

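Ppp1r1b encodes DARPP-32, a protein phosphatase inhibitor switched by dopamine and cAMP that is abundant in the projection neurons of the striatum. The 24 lateral septum libraries of the study were divided by their level of this transcript. Ppp1r1b was expressed as CPM (its count divided by the library's total count, times 1000000). Within each of 4 days the 3 libraries with the highest value were taken as Ppp1r1b-rich and the 3 with the lowest as Ppp1r1b-poor, which gave 12 rich and 12 poor libraries and left none of the 24 out. The libraries were therefore selected on the measured level of Ppp1r1b itself, and its difference between the classes is given as a description with no test. All other genes were free to differ or not.

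The tissue was lateral septum from C57BL/6J males labelled as 8-14 weeks old, profiled by poly(A) RNA sequencing. The mice were examined on day 1, 4, 7 or 10 of chronic social defeat stress (CSDS), in which an aggressive CD-1 mouse attacks the experimental mouse every day and then remains behind a barrier. Age-matched unstressed mice served as controls on each day, so that there were 8 groups of 3 libraries. The rich class held 7 control and 5 CSDS libraries and the poor class 5 control and 7 CSDS libraries. The labels do not state that each library came from a separate animal, so the p-values measure the spread between these libraries.

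The lateral septum is a forebrain nucleus of GABA neurons. It lies between the lateral ventricles, whose choroid plexus makes cerebrospinal fluid, and next to the medial wall of the striatum. Striatal projection neurons are also GABA neurons and fall into a direct pathway type, which carries the dopamine receptor D1 with dynorphin and tachykinin peptides, and an indirect pathway type, which carries the dopamine receptor D2 and the adenosine receptor A2a with enkephalin. Both types use a cAMP cascade in which DARPP-32 is a central substrate. DARPP-32 is also known from other cells, among them choroid plexus epithelium. In bulk tissue fewer cells of a type and less RNA per cell cannot be told apart.

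Total counts ran from 31182747 to 41205354 per library. The day 10 control replicate 1 stood apart, since the locus LOC118568312 held 6.03% of its counts and at most 0.0939% in any other library. The number of genes with at least 1 count was 22270 ± 114 in the rich and 22020 ± 315 in the poor libraries (SD, n = 12 each). This difference passed a two-sided exact permutation test of class within days (p = 0.00692, adjusted over 4 library properties 0.0277), and also without the day 10 control replicate 1 (p = 0.0122, adjusted 0.0488). Total count, mitochondrial share and scaling factor did not pass that test (exact p = 0.0818, 0.506 and 0.198). Mean total counts were 38630000 in the rich and 36890000 in the poor libraries. The poor class held day 10 control replicate 1 at 31182747 and day 4 CSDS replicate 3 at 32129140 counts. Genes detected were not compared at equal depth, and a part of depth in that difference was not tested.

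Ppp1r1b ran from 97.5 to 298 CPM over the 24 libraries. The rich libraries lay between 120 and 298 CPM with a median of 206, and the poor libraries between 97.5 and 173 CPM with a median of 118. On day 1 the rich libraries were CSDS replicate 1 at 298 CPM, control replicate 2 at 293 CPM and CSDS replicate 2 at 208 CPM, and the poor libraries were CSDS replicate 3 at 143 CPM, control replicate 3 at 121 CPM and control replicate 1 at 97.5 CPM. Day 1 was the day with the widest separation, with a gap of 65.2 CPM between the classes and a ratio of class means of 2.21. On day 4 the rich libraries held 222, 218 and 187 CPM and the poor libraries 173, 146 and 107 CPM, a ratio of 1.47. On day 7 the rich libraries held 145, 141 and 132 CPM and the poor libraries 132, 118 and 112 CPM, a ratio of 1.15. The day 7 classes all but touched, since the lowest rich library had 132.4 CPM and the highest poor library 132.0 CPM. On day 10 the rich libraries held 216, 205 and 120 CPM and the poor libraries 118, 105 and 99.9 CPM, a ratio of 1.68. The day 10 boundary was also narrow, at 120.5 CPM for CSDS replicate 2 and 117.5 CPM for control replicate 1. Counted without its large locus, the day 10 control replicate 1 had 125 CPM and exchanged class with CSDS replicate 2.

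**Figure D1:**
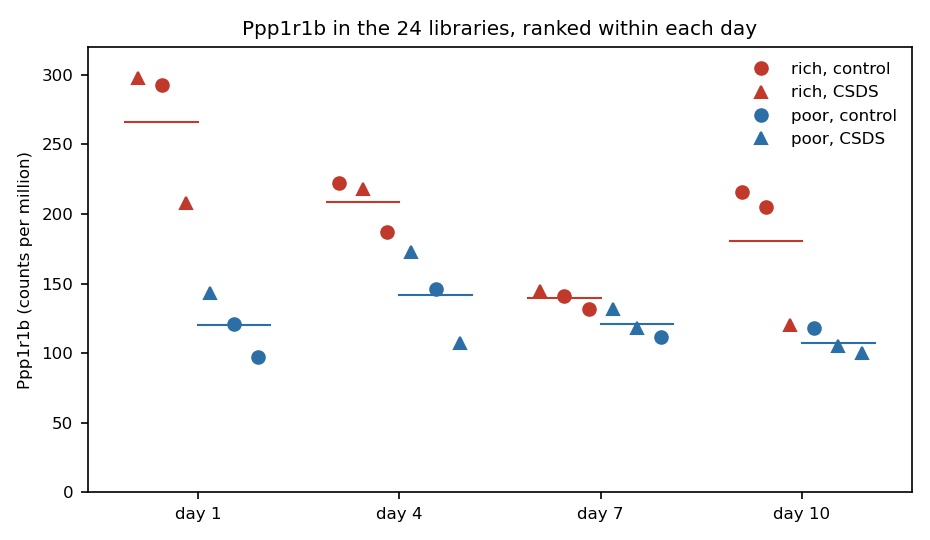
Ppp1r1b in CPM (y axis) for the 24 libraries, by day (x axis) and ordered by rank within the day; red marks rich and blue poor, circles control and triangles CSDS libraries, and lines are the mean of 3 libraries. The classes are 65.2 CPM apart on day 1 and 0.404 CPM apart on day 7.

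The group means of Ppp1r1b were 170 ± 107 CPM in day 1 controls and 216 ± 77.7 CPM in day 1 CSDS libraries (SD, n = 3 each). They were 185 ± 38.3 and 166 ± 55.7 CPM on day 4, and 128 ± 14.5 and 132 ± 13.2 CPM on day 7. On day 10 the control mean was 179 ± 53.9 CPM and the CSDS mean 109 ± 10.7 CPM, with ranges that overlapped at the control replicate 1 that holds the large locus. Scaled by TMM, the 3 day 10 controls held 124, 202 and 215 CPM and the 3 CSDS libraries 108, 121 and 103 CPM, and these did not overlap. Averaged over the 4 days the log2 difference CSDS minus control was -0.14 (SE 0.16), which did not pass edgeR's quasi-likelihood test (adjusted p = 0.928).

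The label of the tissue was checked against marker genes on the length-scaled FPKM values, as the median over the 24 libraries. The GABA synthesis enzymes Gad1 and Gad2 stood at 180 and 113 FPKM. Zic1, a transcription factor of septal neurons, stood at 78.2 FPKM, and the peptide Sst at 135 FPKM. Of these, Gad1 and Gad2 are shared with striatal neurons, and Sst is also a peptide of interneurons. Summed over 16 lateral septum markers, the rich libraries held 1000 to 1280 CPM and the poor 1030 to 1500 CPM. Striatal genes were present in every library as well. Penk, the enkephalin precursor, stood at 116 FPKM and Ppp1r1b at 67.0 FPKM, with Ppp1r1b ranging from 46.1 to 141 FPKM. Drd1 and Adora2a were lower, at 9.97 and 5.74 FPKM. No library lacked septal or striatal genes, and the classes differ in degree.

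The first comparison asked which genes differed between the 12 rich and 12 poor libraries, with day and stress as covariates. Few genes passed. Of 18059 genes tested, 5 rose in the rich libraries (0.0277%) and 14 fell (0.0775%) at an adjusted p under 0.05 by edgeR's quasi-likelihood test. At an unadjusted p under 0.05 there were 957 higher and 1270 lower genes. None of 12 defining genes of striatal projection neurons was called, although all 12 had values above 0, between 0.19 and 0.79 on the log2 scale, with adjusted p between 0.145 and 0.334. DESeq2 called 60 rising and 121 falling genes, and 16 of its rising genes were among 73 genes on lists of striatum-enriched genes, Drd1, Adora2a, Tac1, Rgs9, Pde10a and Rarb included.

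The called rising genes were small in number and mixed in function. Inf2, a formin that nucleates and severs actin and is enriched in striatum, ran from 65.7 to 116 CPM in the rich libraries (median 86.1) and from 56.3 to 77.8 CPM in the poor (median 66.8). Its log2 difference of 0.38 (SE 0.07, adjusted p = 0.0431) had the same direction on all 4 days. Fras1, an extracellular matrix protein of basement membranes, ran from 23.0 to 48.3 CPM in the rich libraries (median 32.4) and from 17.3 to 32.9 CPM in the poor (median 23.7). On 3 of 4 days all rich libraries lay above all poor ones for Fras1, and the difference was 0.51 (SE 0.09, adjusted p = 0.0422). Slc52a3, a riboflavin transporter, had a median of 1.98 CPM in the rich and 1.28 CPM in the poor libraries, a difference of 0.59 (SE 0.10, adjusted p = 0.0409). Mgat4b, a glycosyltransferase of the Golgi, had medians of 38.4 and 35.6 CPM, a difference of 0.17 (SE 0.03, adjusted p = 0.0434). The fifth was the unnamed gene model Gm38413 at 1.52 ± 0.814 CPM in rich and 0.743 ± 0.473 CPM in poor libraries (SD, n = 12).

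The 14 genes that fell in the rich libraries were likewise mixed in function. Gng2, a G protein gamma subunit, ran from 192 to 313 CPM in the rich libraries (median 271) and from 248 to 345 CPM in the poor (median 314). On each of the 4 days all 3 rich libraries lay below all 3 poor ones for Gng2, and the log2 difference was -0.20 (SE 0.03, adjusted p = 0.0409). Gabrq, the theta subunit of the GABA-A receptor, had a median of 15.8 CPM in the rich and 22.7 CPM in the poor libraries, a log2 difference of -0.56 (SE 0.11, adjusted p = 0.046). Htr7, a serotonin receptor coupled to adenylyl cyclase, had medians of 27.9 and 34.6 CPM, a log2 difference of -0.28 (SE 0.06, adjusted p = 0.0431). Arhgap36, which inhibits protein kinase A, had medians of 22.5 and 30.6 CPM, a log2 difference of -0.40 (SE 0.07, adjusted p = 0.0409). The glutamate receptor subunit Gria4, the follistatin-like Fstl5, the RNA helicase Ddx25, Tmem196, Tmie, Nxt2, the cap methyltransferase Rnmt, the zinc finger genes Zfp617 and Zfp941, and 0610010F05Rik completed the 14, with log2 differences between -0.27 (Tmie) and -0.16 (Gria4). Every established gene among the rising and falling calls kept its direction on all 4 days. The daily values come from the libraries that gave the calls.

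These calls depended on single libraries and on where the classes were divided. Without each of 24 libraries in turn the number of calls fell to 0 in 13 runs, among them 5 of the 6 that removed a library of day 1, and with classes from TMM-scaled Ppp1r1b, in which the day 10 libraries exchange class, 1 gene was called. The test of each day alone within the same fit called 0 genes on each day (0% of those tested), with 1050, 765, 447 and 1385 genes at an unadjusted p under 0.05 on days 1, 4, 7 and 10; fitting only the libraries of a day gave 93 calls on day 4 and 0 on the others.

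The level of Ppp1r1b differs between libraries of one class, and the second comparison used it in full, as a slope on log2 Ppp1r1b with day and stress as covariates. A slope of 1 means that a gene doubled when Ppp1r1b doubled. This fit called 98 rising genes (0.543%) and 52 falling genes (0.288%) of 18059. At an unadjusted p under 0.05 there were 1070 and 1256. Division into classes and slope shared 13 called genes, which are 68.4% of the class calls and 8.67% of the slope calls. Both fits use the same Ppp1r1b values in the same libraries, so the same sign of all 13 is no independent check. Of the rising calls 78 of 98, and of the falling calls 48 of 52, had a slope of the same sign on all 4 days. The daily slopes come from the libraries that gave the calls, so these counts are partly built in. Some genes named from this fit fall outside the naming rule and were picked once their values were known.

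Striatal genes made up a large share of what rose. Of 73 genes on 4 lists of striatum-enriched genes, 28 rose and 1 fell, which is 38.4% of the lists and 28.6% of the rising calls, against the 0.543% of all genes. In all, 63 of the 73 had slopes above 0 with a median of 0.29, where the median over all genes tested was -0.01. By list, 12 of 22 genes of dopamine and cAMP signalling rose, 4 of 9 neuropeptide and opioid receptor genes, 3 of 16 transcription factors and 9 of 26 other striatum-enriched genes. Of the 12 defining genes, 9 rose. The lists were compiled with earlier results of these data known.

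**Figure D2:**
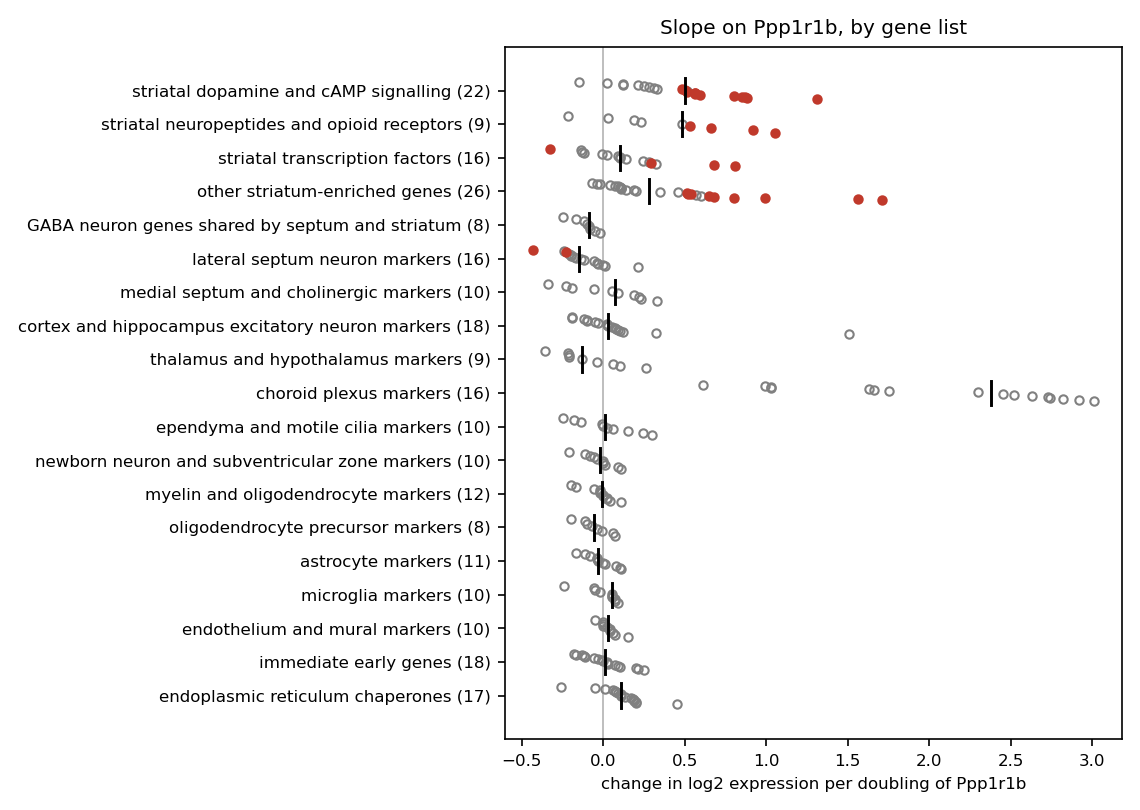
Change in log2 expression per doubling of Ppp1r1b (x axis) for each tested gene of 19 lists (rows, number of genes in brackets); filled red points passed the adjusted p of 0.05, open grey points did not, and the black bar is the list's median. Filled points lie on the 4 striatum lists and, to the left of 0, on the lateral septum list; the choroid plexus list has the highest median, 2.38, with no filled point.

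Receptors of both projection neuron types rose with Ppp1r1b. Drd1, the dopamine receptor of the direct pathway, ran from 17.2 to 63.7 CPM in the rich libraries (median 42.5) and from 12.4 to 51.1 CPM in the poor (median 29.6). The classes overlapped over most of their range, while the slope was 0.87 (SE 0.10, adjusted p = 2.13e-05). Adora2a, the adenosine receptor of the indirect pathway, ran from 5.30 to 41.5 CPM in the rich libraries (median 23.2) and from 5.52 to 23.9 CPM in the poor (median 12.6). Its slope of 1.31 (SE 0.15, adjusted p = 1.56e-05) was above 1. Drd2, which indirect pathway neurons also carry, ran from 37.8 to 68.8 CPM in the rich libraries (median 52.6) and from 37.0 to 55.8 CPM in the poor (median 46.3), with a slope of 0.33 (SE 0.09) that did not pass (adjusted p = 0.0848). It passed in 2 of 14 alternatives other than leaving out 1 library. These were DESeq2 (0.33, adjusted p = 0.0177) and edgeR with choroid plexus and cortex scores as covariates (0.49, adjusted p = 1.84e-05). The orphan receptors Gpr6, Gpr52 and Gpr149 passed, with slopes of 0.80, 0.50 and 0.54. Drd3, a dopamine receptor of the ventral striatum, had a slope of 0.59 and an adjusted p of 0.0489. Chrm4, the muscarinic receptor of direct pathway neurons, had a slope of 0.51 that missed the threshold (adjusted p = 0.0618).

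The peptides of both pathways moved in the same direction. Penk ran from 114 to 312 CPM in the rich libraries (median 212) and from 111 to 239 CPM in the poor (median 160), with a slope of 0.66 (SE 0.08, adjusted p = 3.67e-05). Tac1, the substance P precursor, ran from 18.2 to 94.4 CPM in the rich libraries (median 60.3) and from 21.0 to 67.8 CPM in the poor (median 40.9), with a slope of 1.05 (SE 0.12, adjusted p = 2.56e-05). Pdyn, the dynorphin precursor, ran from 23.9 to 84.5 CPM in the rich libraries (median 62.8) and from 18.5 to 59.6 CPM in the poor (median 38.9), with a slope of 0.92 (SE 0.13, adjusted p = 0.000369). For each of the 3 peptides the rich class reached higher, and both classes shared their lower range. Cartpt, a peptide of reward circuits, rose with a slope of 0.53 (SE 0.10, adjusted p = 0.0068). The opioid receptor genes Oprm1 and Oprk1 had slopes of 0.19 and 0.48 and did not pass (adjusted p = 0.539 and 0.0659).

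Within the cAMP cascade phosphodiesterases and signal regulators rose. The main cyclase and the stimulatory G protein subunit did not pass in the main fit, but did with tissue scores as covariates. Pde10a, the phosphodiesterase that breaks down cAMP and cGMP in projection neurons, ran from 83.0 to 290 CPM in the rich libraries (median 194) and from 61.7 to 227 CPM in the poor (median 133). Its slope was 0.85 (SE 0.12, adjusted p = 0.000316). Rgs9, which speeds the shutdown of G protein signals, ran from 28.3 to 128 CPM in the rich libraries (median 82.9) and from 29.9 to 94.4 CPM in the poor (median 58.3), with a slope of 0.88 (SE 0.11, adjusted p = 8.93e-05). Pde1b, a calmodulin-dependent phosphodiesterase, rose with a slope of 0.48 (SE 0.08, adjusted p = 0.00223), and Pde7b with one of 0.56 (SE 0.07, adjusted p = 8.93e-05). Arpp21, another cAMP-regulated phosphoprotein, and Gng7, the G protein gamma subunit of the striatum, rose with slopes of 0.51 and 0.56 (adjusted p = 0.00375 and 0.00444). Adcy5, the main striatal adenylyl cyclase, had a slope of 0.28 (SE 0.08, adjusted p = 0.108). Gnal, the stimulatory G protein subunit of the striatum, had a slope of 0.12 (SE 0.07, adjusted p = 0.487), and the striatum-enriched phosphatase Ptpn5 one of 0.02 (SE 0.06, adjusted p = 0.916). With choroid plexus and cortex scores as covariates, edgeR gave Adcy5 a slope of 0.42 (adjusted p = 4.86e-05) and Gnal 0.24 (adjusted p = 0.00693). Ptpn5 had 0.10 there (adjusted p = 0.53). Of 14 alternatives other than leaving out 1 library, Adcy5 passed in 2, Gnal in 1 and Ptpn5 in 0. Length-scaled levels of Adcy5, Gnal and Ptpn5 had medians of 51.5, 81.6 and 67.8 FPKM, where Pde10a and Rgs9 had 6.87 and 7.99 FPKM. Penk, which rose, stood higher than any of these, and a relation of level to slope was not tested.

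Of 16 transcription factors on the list, Rarb, Rxrg and Foxp1 rose and Sp8 fell. Rarb, the retinoic acid receptor beta of striatal neurons, ran from 13.2 to 41.9 CPM in the rich libraries (median 29.9) and from 12.5 to 33.9 CPM in the poor (median 22.3). It rose with a slope of 0.68 (SE 0.09, adjusted p = 8.14e-05). Rxrg, its partner retinoid X receptor gamma, ran from 9.97 to 33.3 CPM in the rich libraries (median 21.1) and from 7.96 to 21.3 CPM in the poor (median 14.2), with a slope of 0.81 (SE 0.10, adjusted p = 3.67e-05). Foxp1, a forkhead factor of projection neurons, rose by less, with a slope of 0.29 (SE 0.06, adjusted p = 0.0136). Bcl11b, known as Ctip2, had a slope of 0.24 (SE 0.09, adjusted p = 0.24). It passed in 2 of 14 alternatives other than leaving out 1 library. With choroid plexus and cortex scores as covariates its slope was 0.34 (edgeR, adjusted p = 1.26e-05). Sp8, a zinc finger factor of newly formed forebrain interneurons and of indirect pathway precursors, was the member of the striatum lists that fell. It ran from 25.2 to 40.8 CPM in the rich libraries (median 32.5) and from 27.3 to 49.0 CPM in the poor (median 35.7), with a slope of -0.33 (SE 0.06, adjusted p = 0.00223).

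Rarb is itself a target of retinoic acid through an element of its promoter, which is printed here because Rarb and Rxrg both rose. The Tac1 promoter follows, as that of a called peptide gene whose cAMP response element half-sites could be searched. Both are the 250 bases before the RefSeq start on build GRCm38.p6, at chr14:16575477-16575726 on the minus strand for Rarb and chr6:7554811-7555060 on the plus strand for Tac1, written 5′ to 3′. Capitals in Rarb mark the direct repeat of the half-sites GGTTCA and AGTTCA with the 5 bases between them, and capitals in Tac1 mark the half-site TGACG, found on the opposite strand. Of the 73 striatum-list genes 53 had a promoter in the RefSeq table.
Rarb: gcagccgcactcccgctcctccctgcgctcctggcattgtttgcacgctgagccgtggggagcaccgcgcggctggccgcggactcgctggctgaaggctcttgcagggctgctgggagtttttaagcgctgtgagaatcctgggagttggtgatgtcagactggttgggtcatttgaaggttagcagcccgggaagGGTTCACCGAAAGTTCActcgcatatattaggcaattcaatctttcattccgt
Tac1: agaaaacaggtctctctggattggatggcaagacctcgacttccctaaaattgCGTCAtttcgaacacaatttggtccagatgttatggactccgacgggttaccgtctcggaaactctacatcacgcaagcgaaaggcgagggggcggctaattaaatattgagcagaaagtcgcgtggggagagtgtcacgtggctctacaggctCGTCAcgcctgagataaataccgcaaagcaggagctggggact
The Rarb repeat lay between 53 and 37 bases before the start and was found, searching both strands, in 2 of 32851 promoters of this length (0.00609%). The half-site TGACG was found 2 times in the Tac1 window and at least 1 time in 17.8% of the 32851. A match describes letters in the window and is no measure of binding.

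Genes outside the signalling lists gave some of the closest likenesses to Ppp1r1b. After the group means were removed, Pearson's r with Ppp1r1b over the 24 libraries was 0.93 for Pcp4l1, a relative of PEP-19 (Spearman's rho 0.90, and 0.91 for r without the 2 libraries farthest from the median of Ppp1r1b). Strip2, a scaffold of a phosphatase complex, had r = 0.92 (rho 0.91, and 0.89 without those 2), and Ypel2 had r = 0.92 (rho 0.87, and 0.89). Prkch, a protein kinase C isoform, followed with r = 0.91. The rest of the 15 highest of 11759 genes were Rxrg (0.90), Inf2, Cacna2d3 and Nt5e (0.89 each), Gpr52, Fras1 and Dclk3 (0.88 each), Drd1, Ppp1r2 and Penk (0.87 each) and Rarb (0.86). These values describe libraries whose genes share depth and dissection, and no p is attached to them. In the slope fit Ppp1r2 did not pass (slope 0.21, adjusted p = 0.0728). Pcp4l1 ran from 127 to 212 CPM in the rich libraries (median 177) and from 95.5 to 170 CPM in the poor (median 133), with a slope of 0.60 (SE 0.05, adjusted p = 6.78e-08). Strip2 ran from 59.4 to 136 CPM in the rich libraries (median 100) and from 45.1 to 84.5 CPM in the poor (median 65.7), with a slope of 0.80 (SE 0.06, adjusted p = 6.78e-08). Scn4b, a sodium channel beta subunit, Sh3rf2, Syndig1l, Dclk3 and Serpina9 of the striatum lists rose with slopes of 0.99, 1.56, 0.65, 0.68 and 1.71. Nt5e, the enzyme that makes extracellular adenosine, rose with a slope of 0.89 (SE 0.10, adjusted p = 2.13e-05), although its median level was only 6.73 CPM in the rich and 4.76 CPM in the poor libraries.

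**Figure D3:**
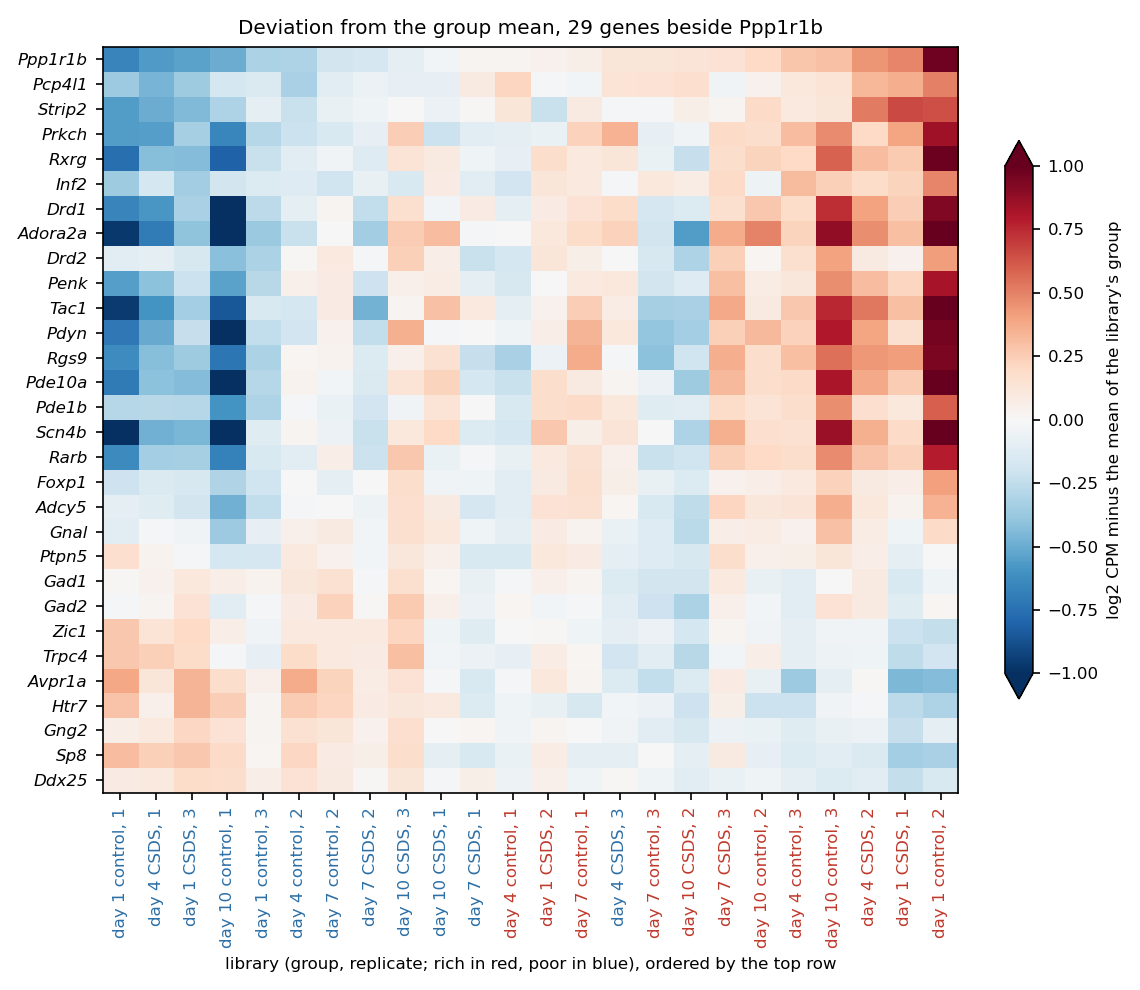
Deviation of log2 CPM from the mean of the library's own group (colour, clipped at -1 and 1) for Ppp1r1b and 29 genes (rows) in the 24 libraries (columns), ordered by the deviation of Ppp1r1b from low to high; library names are red for rich and blue for poor. Red gathers on the right for the genes from Pcp4l1 to Foxp1 and on the left, more faintly, for those from Zic1 to Ddx25.

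Genes that fell as Ppp1r1b rose included members of the lateral septum list. Zic1 ran from 364 to 559 CPM in the rich libraries (median 464) and from 419 to 664 CPM in the poor (median 515). Its slope was -0.23 (SE 0.05, adjusted p = 0.0261), below 0 on all 4 days. Avpr1a, the vasopressin receptor through which the peptide acts in the lateral septum, ran from 4.99 to 9.57 CPM in the rich libraries (median 7.15) and from 6.30 to 10.2 CPM in the poor (median 9.09), with a slope of -0.43 (SE 0.08, adjusted p = 0.00875). Zic1 and Avpr1a were the called members of a list of 16 lateral septum markers, of which 14 had slopes below 0, with a median of -0.15. Over all genes tested 9675 of 18059 had slopes below 0 and 0.288% were called falling. Zic1 stayed called in 17 of 24 runs with 1 library left out, with an adjusted p of 0.149 without day 1 CSDS replicate 1, and Avpr1a in 22, with an adjusted p of 0.0741 without the same library. The channel Trpc4 had a slope of -0.24 (SE 0.06) and did not pass (adjusted p = 0.091), and the peptide Nts had one of -0.18 (adjusted p = 0.329). Sst, a peptide of septal neurons and of interneurons, had a slope of 0.01 (SE 0.09, adjusted p = 0.98).

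Other falling genes were chosen by their p. Glra2, a glycine receptor subunit, had a slope of -0.30 (SE 0.05, adjusted p = 0.00327), and Htr7 one of -0.33 (SE 0.06, adjusted p = 0.00886). The G protein subunits Gng2, Gng4 and Gnai1 fell with slopes of -0.23, -0.26 and -0.17. Ddx25 had a slope of -0.26 (SE 0.04, adjusted p = 0.000819). The phospholipase D family member Pld5, the neurexin ligand Nxph1 and the secretory granule protein Resp18 fell with slopes of -0.36, -0.23 and -0.27. The lowest correlations over the 24 libraries were those of Sp8 (r = -0.89, rho -0.81), 2610301B20Rik (r = -0.88, rho -0.87), Ddx25 (r = -0.85, rho -0.91), Gm28703, the glutamate receptor Grm8 and the histamine receptor Hrh1 (r = -0.85 each), the globin Ngb (r = -0.84), Spats2l and Avpr1a (r = -0.83 each) and Tdrkh (r = -0.82).

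The level of genes that septal and striatal GABA neurons share was examined as well. Gad1 ran from 758 to 1070 CPM in the rich libraries (median 910) and from 828 to 1150 CPM in the poor (median 978), with a slope of -0.10 (SE 0.05, adjusted p = 0.429). Gad2 had a slope of -0.05 (SE 0.07, adjusted p = 0.808). All 8 genes of that list had slopes below 0, with a median of -0.09, and none was called, where 0.543% of all genes were called rising and 0.288% falling, so that a count of 0 among 8 is near the background.

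**Figure D4:**
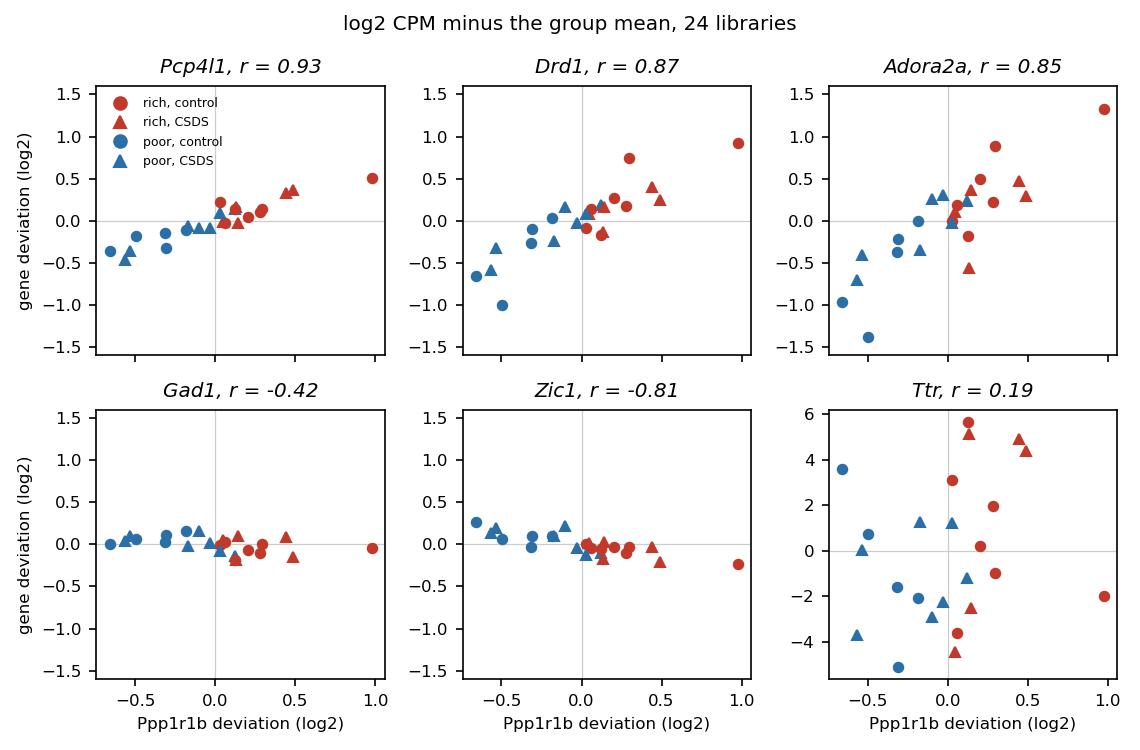
Deviation from the group mean of 6 genes (y axes, log2 CPM) against that of Ppp1r1b (x axes, log2 CPM) in the 24 libraries; red marks rich and blue poor, circles control and triangles CSDS libraries. Pcp4l1, Drd1 and Adora2a climb with Ppp1r1b (r = 0.93, 0.87 and 0.85), Zic1 declines (r = -0.81), and Ttr, on a wider y axis, scatters (r = 0.19).

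Markers of neighbouring tissue were examined in the same libraries. All 16 choroid plexus markers had class differences above 0, with a median of 1.74. By edgeR 0 of them were called, where 0.0277% of all genes were called rising. By day the median was 3.01, 4.39 and 0.81 on days 1, 4 and 10, and on day 7 it was -0.80 with 0 of 16 above 0. Ttr, the thyroid hormone carrier of the choroid plexus, ran from 5.01 to 7640 CPM in the rich libraries (median 2910) and from 7.98 to 8950 CPM in the poor (median 41.7), and the log2 difference of 2.24 had an SE of 1.43 (adjusted p = 0.546). That difference was 0.53 without day 1 CSDS replicate 1 and 4.29 without day 10 control replicate 1. Summed over the 16 choroid plexus markers, 8 of 12 rich and 3 of 12 poor libraries held more than 1000 CPM, with no library between 631 and 3050 CPM. The rich libraries ran from 94.1 to 9680 CPM and the poor from 99.0 to 9840 CPM. All 16 markers had slopes above 0 with a median of 2.38, and 0 were called, where 0.543% of all genes were called rising. In the control libraries alone 2 of 16 had slopes above 0, with a median of -0.46. In the CSDS libraries alone 16 of 16 did, with a median of 4.24. With choroid plexus and cortex scores as covariates, 45 of the 73 striatum-list genes rose in place of 28, with a median slope of 0.38.

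**Figure D5:**
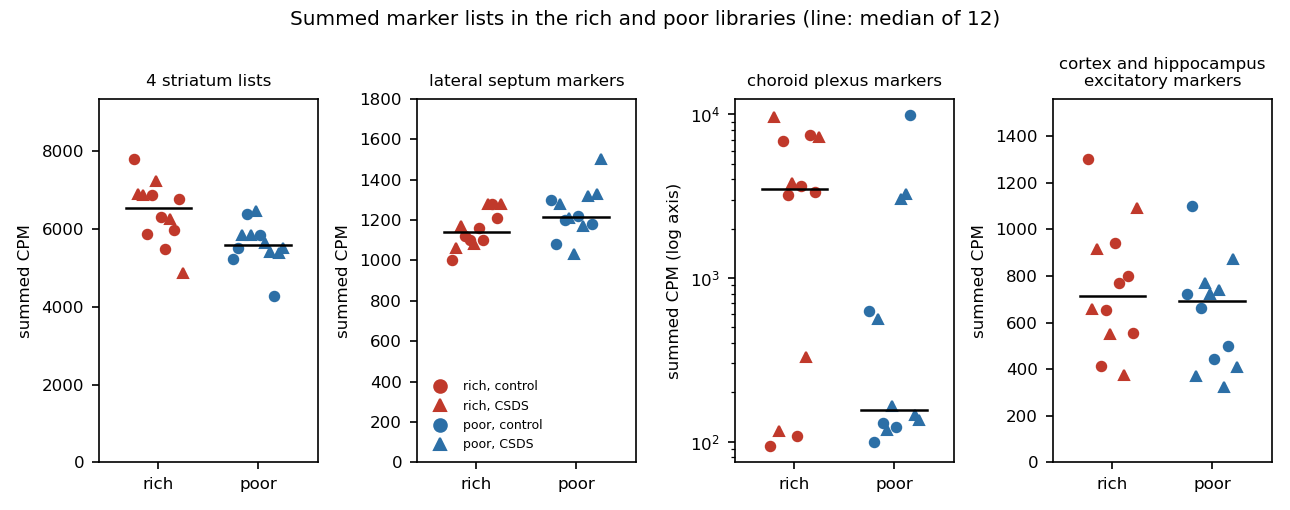
Summed CPM of 4 marker lists (y axes; log axis for choroid plexus) in the 12 rich and 12 poor libraries (x axis), circles control and triangles CSDS, with the median as a black line. The striatum sums run from 4880 to 7800 CPM in rich and 4280 to 6470 CPM in poor libraries, and the choroid plexus sums split into a high and a low set within both classes.

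No gene of the remaining lists was called, and their median slopes lay between -0.13 and 0.11. Over all genes 0.543% were called rising and 0.288% falling, so a count of 0 in lists this short is near the background. Slc17a7, the glutamate transporter of cortex and hippocampus, ran from 34.5 to 524 CPM in the rich libraries (median 188) and from 15.9 to 431 CPM in the poor (median 173), with a slope of 0.08 (SE 0.51, adjusted p = 0.97). The 18 cortex and hippocampus markers had a median class difference of 0.21 with 17 of 18 above 0, where the striatum lists had 0.19. By day their median was 0.35, -0.43, 0.48 and 0.42 on days 1, 4, 7 and 10. Their slopes had a median of 0.03. They summed to between 373 and 1300 CPM in the rich libraries and between 325 and 1100 CPM in the poor, and 0 were called. Mbp of myelin had a slope of 0.02 (SE 0.13, adjusted p = 0.969), and Chat of cholinergic neurons one of 0.33 (SE 0.16, adjusted p = 0.375). The immediate early genes Fos and Egr1 had slopes of -0.18 and -0.03 (adjusted p = 0.797 and 0.943). The endoplasmic reticulum chaperone Hspa5 and the factor Manf, around which the series is titled, had slopes of 0.19 and 0.20 (adjusted p = 0.684 and 0.569). Lists for thalamus and hypothalamus, medial septum, ependyma, newborn neurons, oligodendrocyte precursors, astrocytes, microglia and vessels held no called gene, with medians between -0.13 and 0.07; Sim1, Hcrt and Avp were too low to test.

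The rise of the striatal genes was compared across days. In the class comparison 64 of 73 striatum-list genes were above 0 on day 1 with a median log2 difference of 0.40, 59 on day 4 (median 0.11), 56 on day 7 (median 0.09) and 53 on day 10 (median 0.16). The ratio of class means of Ppp1r1b, at 2.21, 1.47, 1.15 and 1.68 on days 1, 4, 7 and 10, ranked the days in the same order. The gap between the classes did not, at 13.9 CPM on day 4 and 2.99 CPM on day 10. The classes were divided on Ppp1r1b, so for genes correlated with it such an order is partly built in. As single genes, the slope of Drd1 was 0.81, 0.82, 0.34 and 1.07 on days 1, 4, 7 and 10, that of Tac1 was 1.01, 0.93, 0.70 and 1.23, and that of Pcp4l1 was 0.57, 0.78, 0.50 and 0.53. The highest Ppp1r1b value was 3.05 times the lowest on day 1 and only 1.29 times on day 7. The daily slopes are given without an SE and were not tested against each other. A test of whether the class difference depended on the day called 0 genes by edgeR's quasi-likelihood test (0%), with 365 at an unadjusted p under 0.05. The genes with the smallest p in it, Wif1, Rln1 and A930009A15Rik, had medians at or under 1.10 CPM in both classes. Without the 6 libraries of day 1 the slope fit called 10 rising and 1 falling gene, of which 5 of the rising were on the striatum lists, while the median slope of these lists was 0.28 against 0.29.

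Control and CSDS libraries were also examined apart. In the 12 control libraries 37 genes rose and 2 fell with Ppp1r1b, and 21 of 73 striatum-list genes rose with a median slope of 0.42. In the 12 CSDS libraries 2 genes rose, Pcp4l1 with a slope of 0.72 (adjusted p = 0.0043) and Strip2 with one of 0.95 (adjusted p = 0.012), and the median slope of the striatum lists was 0.26. Drd1 had slopes of 1.06 in control libraries (adjusted p = 0.0253) and 0.73 in CSDS libraries (adjusted p = 0.287). Tac1 had slopes of 1.18 and 0.84 (adjusted p = 0.0253 and 0.421). The test of whether the class difference depended on stress called 0 genes (0%), with 480 at an unadjusted p under 0.05, and its smallest p-values belonged to Eif3j2, P2ry13 and 1700120C14Rik (adjusted p = 0.998 each). That test was of the classes, and the slopes themselves were not tested between control and CSDS libraries. Passing in control libraries and not in CSDS libraries is not shown to be a difference between them.

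The last comparison asked whether the differences between CSDS and control libraries moved when Ppp1r1b was held. The average over 4 days called 9 rising (0.0498%) and 12 falling genes (0.0664%). With log2 Ppp1r1b as a covariate it called 9 rising (0.0498%) and 13 falling genes (0.072%), and 20 genes were called both times. Ahsa1, Atf3 and Spry4 were called in 1 of the 2 fits. The iron uptake receptor Tfrc had a log2 difference of 0.40 without and 0.38 with the covariate (adjusted p = 0.000134 and 6.8e-05). Ndn, an imprinted gene of the MAGE family, had 0.93 and 0.91, and Lrg1, a leucine-rich glycoprotein of activated vessels, 2.17 and 2.23. Vwf of endothelium had 0.86 and 0.88, and the insulin-degrading enzyme Ide -0.51 and -0.50. Fos had -0.73 and -0.70 (adjusted p = 0.0374 and 0.0463), and Egr1 -0.32 and -0.30 (adjusted p = 0.0187 and 0.011). Without the covariate Fos stayed called in 5 and Egr1 in 21 of 24 runs with 1 library left out, and Tfrc, Ndn, Lrg1, Vwf and Ide in all 24. Of the genes called on the slope or the class, 0 were called between CSDS and control libraries. With 0.0498% of all genes called rising there and 0.0664% falling, a count of 0 is near the background. Of the 73 striatum-list genes 49 were below 0 in CSDS libraries without the covariate, with a median of -0.03, and 25 with it, with a median of 0.02. Ppp1r1b itself was at -0.14 in CSDS libraries and 63 of the 73 had slopes above 0 on it, so this shift is largely built in. In either fit 0 of the 73 were called, again near the background.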

How the data were processed

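Poly(A), strand-specific libraries of lateral septum RNA were read from both ends, per the labels' protocols. Trimming, alignment and counting tools listed in the submitters' processing notes are fastp, HISAT2 and HTSeq, with build GRCm39. Tool versions are not given in the sources used here. The authors deposited raw counts and FPKM, each as 1 table with a row for every gene. The counts were the basis of the classes and of all main tests, and the FPKM values of levels compared between genes and of the limma alternatives. Counts were scaled by TMM and fitted in edgeR 4.0.16 (R 4.3.3) with quasi-likelihood tests, after filterByExpr by the 8 groups left 18060 of 28859 genes. Ppp1r1b was left out of the Benjamini-Hochberg adjustment of the class and slope tests, and calls had an adjusted p under 0.05. Class tests had day and stress as covariates and 18 residual degrees of freedom. Library properties were compared by exact permutation of class within days. Correlations used log2 CPM with the 8 group means removed and genes of at least 5 CPM on average. The named genes were a fixed set of markers, the called genes with the largest class difference and the same direction on all 4 days (no unnamed gene models), the 15 highest and 10 lowest correlations, and the called list members with the smallest p; a few of these genes are not reported here. Alternatives were RLE scaling, other filters, DESeq2 1.42.0, limma 3.58.1 on log2(FPKM + 1) and log2(FPKM + 0.1), a replicate block, other divisions into classes, tissue scores as covariates, subsets of libraries and each library left out. The slope on Ppp1r1b was planned as an alternative to the classes, and its own alternatives were chosen after seeing the data. The members and the gene lists were chosen with earlier results of these data known. The fitting steps were tested on simulated data. Promoters are from RefSeq on GRCm38.p6.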

Additional observations from a re-analysis of the deposited data

Results flagged for a closer look

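The named genes, and not all genes tested, were searched for a change of direction between days. In 3 of them the rich libraries lay all above the poor ones on some days and all below them on others. Values are log2 ratios of mean CPM, rich over poor. Wif1, an inhibitor of Wnt signals, had -1.44 on day 4 and 2.04 on day 10. Rln1, the hormone relaxin, had -1.06 on day 1, 1.69 on day 7 and -0.66 on day 10. A930009A15Rik had -0.32 and -0.21 on days 1 and 4, against 0.36 and 1.29 on days 7 and 10. All 3 were named for the smallest p in the test between days, a choice that favours such a pattern. They were at or under 1.56 CPM in every library, and did not pass that test (edgeR, adjusted p = 1 each).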

How the results depend on the processing

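The direction of single genes was followed for the named genes alone, in the class, slope and CSDS minus control comparisons. No called gene among them reversed its direction under the alternatives run, whereas uncalled values did. The slope of Ttr was 2.74 in all libraries, -2.08 in control libraries and -0.35 with tissue scores. That of Fos was -0.18 in all libraries and 0.29 in control libraries. The 5 rising and 14 falling genes of the class comparison became 60 and 121 with DESeq2, 10 and 22 with the 2 highest and 2 lowest libraries of each day, 1 and 0 with classes from TMM-scaled Ppp1r1b, 1 and 0 in control libraries, 0 and 0 in CSDS libraries, 0 and 0 without day 7, 2 and 5 with limma on log2(FPKM + 1), and 2 and 3 with that and no filter. Without a filter on counts 12 genes rose, and with choroid plexus and cortex scores 49 rose. Leaving out 1 library gave 0 to 14 rising and 0 to 29 falling genes. The slope's 98 rising and 52 falling genes became 170 and 135 with DESeq2, 37 and 2 in control libraries, 2 and 0 in CSDS libraries, 10 and 1 without day 1, and 56 and 15 without day 4. Rising genes numbered 256 with the tissue scores, and falling genes 31 with no filter, 22 without day 7 and 16 without day 10. Leaving out 1 library gave 55 (without day 1 control replicate 1) to 134 rising and 8 (without day 1 CSDS replicate 1) to 106 falling genes. Drd1, Adora2a, Penk, Pdyn, Tac1 and Pcp4l1 stayed called in all 24 of these runs. CSDS minus control gave 18 rising and 42 falling genes with DESeq2, 7 to 11 and 5 to 17 with 1 library left out, and 6 to 11 and 6 to 19 with the covariate as well. Libraries of day 4 alone gave 93 class calls. The cause of these shifts was not tested. Same-numbered libraries of a day did not deviate together (r from -0.41 to 0.18, over 0.1 in 2 of 12 pairs), and the replicate block left 0 and 0 class calls and 78 rising and 33 falling slope calls.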
